A study of Mus musculus with 6 samples.

Results

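The Reg genes encode small secreted proteins with a single C-type lectin domain, and 7 of them were measured here in epithelium of the small intestine from mouse embryos at E18.5, late in gestation: Reg1, Reg2, Reg3a, Reg3b, Reg3d, Reg3g and Reg4. They were chosen by the values of these arrays, as family members whose levels differed in opposite directions between the groups, so their differences between groups are given as a description and no p-value is given for them. Each of the 7 has 1 probe set that names no other gene, out of 19938 genes with such a probe set. The 6 whole-transcript arrays held RNA of isolated epithelial cells. Of these, 3 were labelled control, with a genotype that the sources used here do not give, and 3 were labelled Gata4Gata6 double conditional knockout (cKO), for deletion of both transcription factor genes. The Cre driver and the deleted exons are not given either, nor whether different animals stand behind the arrays of each group, so errors and p-values reflect the spread among these arrays alone, and that spread may be technical. The number of arrays limits the precision of every value.

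Reg proteins of the gut lumen hold bacteria away from the epithelium. Reg3b and Reg3g are bactericidal lectins that enterocytes and Paneth cells release, and their transcription is known to be raised by microbial signals through MyD88 and by interleukin-22 through STAT3. Reg1 and Reg2 are known both from gut epithelium and from the acinar cells of the pancreas, where Reg1 was first described as pancreatic stone protein. Reg4 is made by endocrine and other secretory cells of the gut. Mouse Paneth cells form only after birth, and the gut before birth is nearly free of microbes.

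All values are deposited log2 levels, and every difference is the mean of the arrays labelled cKO minus the mean of the controls, with its standard error (SE) from a fit over all genes. The direction rests on the labels, because neither targeted transcript was lower in the cKO group. Gata4 read 10.93 to 10.96 on the controls and 11.34 to 11.51 on the arrays labelled cKO, and Gata6 read 12.23 to 12.28 and 12.69 to 12.72. In the fit over all genes Gata4 was higher by 0.47 (limma adjusted p = 0.0101) and Gata6 by 0.45 (adjusted p = 0.0067). These probe sets span the transcript, so they can read exons that a deletion leaves in place. What lies behind the higher values was not tested. Array medians were 7.73 to 7.84. The 10 epithelial markers listed, Vil1 and Cdx2 among them, averaged 11.95 to 12.18 on the 6 arrays. Control 3 and cKO 2 carried the most liver RNA of their groups (albumin, Alb, at 13.19 and 13.66, against 6.56 to 12.04 on the other arrays), and values without both are given where they matter.

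Promoter windows are shown for the 3 members that differed most and for Reg3g, the nearest relative of Reg3b. Each runs from 250 bases before to 50 bases after the annotated start, 5′ to 3′ on the gene's strand, from RefSeq on build GRCm38.p6. Capitals mark matches, on either strand, to the GATA motif (AGATAA, with the variants AGATAG, also TGATAA, also TGATAG), the STAT motif (TTCNNNGAA) or the CDX motif (TTTATNG). The windows are Reg3b at chr6:78370635-78370934 (plus strand), Reg3g at chr6:78468825-78469124 (minus strand), Reg1 at chr6:78425733-78426032 (plus strand) and Reg4 at chr3:98221906-98222205 (plus strand).
Reg3b: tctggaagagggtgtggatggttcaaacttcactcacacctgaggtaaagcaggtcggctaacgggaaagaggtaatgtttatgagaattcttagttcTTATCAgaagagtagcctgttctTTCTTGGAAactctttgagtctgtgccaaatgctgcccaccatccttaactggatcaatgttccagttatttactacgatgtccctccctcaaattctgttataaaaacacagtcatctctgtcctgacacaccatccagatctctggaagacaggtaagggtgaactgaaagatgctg
Reg3g: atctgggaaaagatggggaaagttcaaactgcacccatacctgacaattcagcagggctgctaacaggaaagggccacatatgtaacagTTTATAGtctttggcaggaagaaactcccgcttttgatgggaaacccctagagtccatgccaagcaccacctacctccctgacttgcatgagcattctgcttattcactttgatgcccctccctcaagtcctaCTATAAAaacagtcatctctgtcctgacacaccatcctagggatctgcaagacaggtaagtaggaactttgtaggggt
Reg1: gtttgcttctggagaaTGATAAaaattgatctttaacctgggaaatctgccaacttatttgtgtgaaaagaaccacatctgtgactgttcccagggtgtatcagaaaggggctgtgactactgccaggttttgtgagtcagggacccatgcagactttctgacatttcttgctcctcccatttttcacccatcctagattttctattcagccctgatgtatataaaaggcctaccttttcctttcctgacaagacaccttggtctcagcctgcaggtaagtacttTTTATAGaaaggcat
Reg4: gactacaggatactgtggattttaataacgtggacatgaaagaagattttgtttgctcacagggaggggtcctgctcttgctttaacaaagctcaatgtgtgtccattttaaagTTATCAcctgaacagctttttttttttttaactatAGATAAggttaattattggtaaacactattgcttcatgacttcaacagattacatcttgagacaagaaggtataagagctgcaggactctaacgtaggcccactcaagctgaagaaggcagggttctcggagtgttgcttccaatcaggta

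Reg3b, a bactericidal lectin, was the member that stood highest above the controls on the arrays labelled cKO. It read 7.55, 7.64 and 7.92 on control arrays 1 to 3 and 12.13, 12.65 and 12.47 on arrays cKO 1 to 3. The groups were 4.21 log2 units apart at their nearest arrays, and each group lay within a narrow band. Its difference was 4.71 ± 0.16 (SE, n = 3 arrays per group), or 26.2-fold in the deposited values. The controls lay near the array medians, and without detection calls it is not known how far they stood above background, which bears on the size of the fold. In epithelium that is a mixture of cells, more cells that make a transcript and more RNA per cell cannot be told apart, which holds for every member.

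Reg1 went the other way. It read 11.03, 11.82 and 11.23 on the controls and 8.51, 8.43 and 8.54 on the arrays labelled cKO. All 3 control arrays lay at least 2.49 above any array labelled cKO, and the arrays labelled cKO differed from each other by far less than the controls did. The means were 11.36 ± 0.41 (SD, n = 3) and 8.49 ± 0.06, a difference of −2.87 ± 0.20 (7.29-fold lower).

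Reg4, the member made by secretory cells, was also higher on the arrays labelled cKO. It read 10.65, 10.63 and 11.63 on the controls, with control 3 well above the other two, and 12.02, 12.03 and 12.21 on the arrays labelled cKO. The groups did not overlap, and the nearest arrays were 0.39 apart. The difference of 1.12 ± 0.27 (2.17-fold) ran from 0.95 to 1.45 with 1 array left out, and it was 1.48 with control 3 and cKO 2 both left out.

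Reg3g, the closest relative of Reg3b by its promoter sequence, differed less. It read 8.13, 7.45 and 8.56 on the controls and 8.48, 9.28 and 8.98 on the arrays labelled cKO. The groups overlapped, since cKO 1 lay below control 3. Its difference was 0.87 ± 0.32, against 4.71 for Reg3b on the same arrays. Within each group the order of the arrays in Reg3g was that of their liver RNA: a list of 8 measured hepatocyte genes averaged 10.50, 8.53 and 11.84 on the controls and 8.81, 13.12 and 8.94 on the arrays labelled cKO. With the hepatocyte mean as a covariate the Reg3g difference was again 0.87. That mean was nearly the same in both groups, so as a covariate it could hardly move any difference. The part of liver RNA in the Reg3g level was not tested.

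Reg3a, Reg2 and Reg3d stayed near the low end of the scale on every array. All 3 lay in the lower tertile of genes by mean level, under 7.50, where background can hide larger differences. Reg3a read 5.93, 6.25 and 6.22 on the controls and 6.47, 6.32 and 6.35 on the arrays labelled cKO, with groups that did not overlap by 0.07 and a difference of 0.25 ± 0.11. Reg2 read 5.52, 6.21 and 6.45, and 6.46, 5.89 and 6.27, and its groups overlapped (0.15 ± 0.26). Its sign turned with 1 array left out, from −0.12 to 0.34. Reg3d, known as an islet neogenesis associated protein, read 6.63, 6.06 and 6.32, and 6.13, 6.04 and 6.25, also with overlap (−0.20 ± 0.15).

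**Figure D1:**
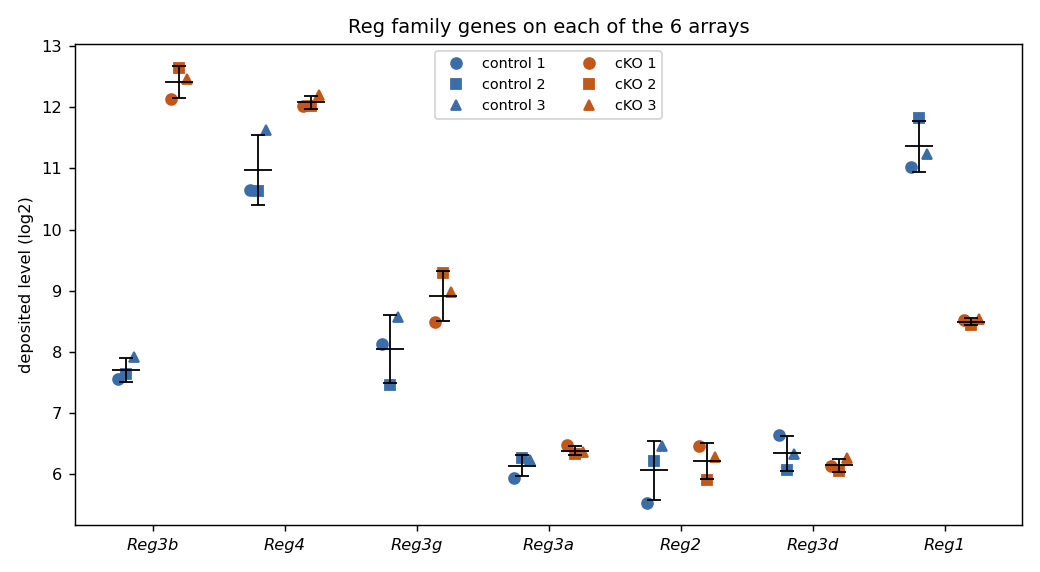
Deposited log2 level (vertical axis) of the 7 Reg genes (horizontal axis) on each of the 6 arrays, blue for control and orange for cKO, with 1 symbol per replicate number, and black bars for the mean and SD of 3 arrays. Reg3b stands at 7.55 to 7.92 on the controls and 12.13 to 12.65 on the arrays labelled cKO, Reg1 lies the other way, and the levels of different genes cannot be set against each other.

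Counted by limma's test with Benjamini-Hochberg adjustment over all genes at 0.05, 2 members were higher (Reg3b and Reg4) and 1 lower (Reg1), where 5.52% of all genes were called higher, 7.42% lower and 12.9% in either direction. Groups of arrays did not overlap for 4 members (Reg1, Reg3a, Reg3b and Reg4) and for 32.6% of all genes. The members were picked on this contrast, so these counts describe them and support nothing. Leaving out 1 array gave 2 or 3 members, and Reg4 was the member lost, without control 1, control 2 or any 1 array labelled cKO. A trended, robust fit also lost Reg4, and the hepatocyte covariate added Reg3g. Reg1 and Reg3b were called in each of the 17 other settings run. The signs of Reg3a, Reg3g and Reg4 (above 0) and of Reg3d (below 0) were the same in each setting that held the gene. The trended fit, the replicate number as a block, means of probe sets and leaving out the lower tertile cannot change a member's difference. The hepatocyte covariate could hardly do so. Equal signs under those settings were therefore fixed in advance.

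Pancreatic RNA was looked at beside the members because Reg1 and Reg2 are acinar products. The mean of 26 measured genes of a list of 30 was 9.28, 8.31 and 7.60 on the controls and 9.16, 8.96 and 8.46 on the arrays labelled cKO, so the groups overlapped and the 2 extremes were both controls. Cpa1, a carboxypeptidase of acinar cells, read 11.41, 9.13 and 7.24 on the controls and 11.29, 10.95 and 10.13 on the arrays labelled cKO. Within each group 3 other protease genes fixed as markers had the same order of arrays: Ctrb1 read 12.67, 11.27 and 9.92, then 12.55, 12.35 and 11.30, while Cela3b went from 9.36 to 6.63 over the controls and Prss2 was highest on control 1 (9.13) and lowest on control 3. Not every protease gene of the list did so. Named after their values were seen, Ctrl was higher on cKO 2 (8.96) than on cKO 1 (8.49), and Ctrc varied little, from 7.48 to 7.96. Try5, also named after its values were seen, had the order of Cpa1 within each group, with its highest value on cKO 1 (9.59). No marker named here was at 0 on any array. Ptf1a, the acinar transcription factor, was flat at 7.30 to 7.65, and Pnlip and the islet gene Ins1 were not analysed here.

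The part of pancreatic RNA in the Reg differences was not tested, and the values of both are given side by side. The exocrine mean spanned 1.69 over the controls and Reg1 spanned 0.79, with its highest value on control 2, the middle array for exocrine RNA. Control 1 and cKO 1 had exocrine means of 9.28 and 9.16, and Reg1 stood at 11.03 on the first and 8.51 on the second. With the exocrine mean as a covariate the Reg1 difference was −2.80. Reg2 was lowest on control 1, the array with most exocrine RNA, and at 6.45 on control 3, the array with least. The same covariate left Reg3b at 4.82 and Reg4 at 1.35. Of the 26 exocrine genes, Bhlha15, a secretory cell transcription factor, rose by 0.61 ± 0.10 (limma adjusted p = 0.013) and Spink1, a trypsin inhibitor, fell by 0.44 ± 0.10 (adjusted p = 0.0306). The list median was 0.41, against −0.01 over all genes. Bhlha15 lost its call without control 2, control 3 or cKO 3, and Spink1 without any 1 control, cKO 2 or cKO 3.

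**Figure D2:**
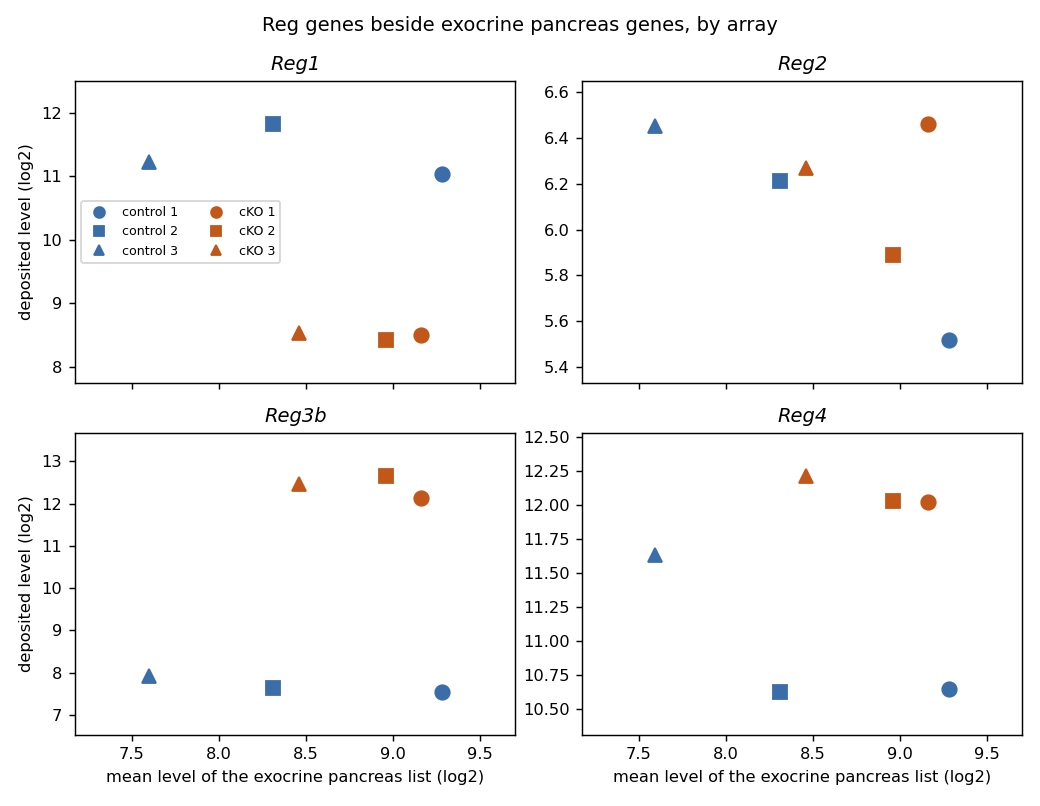
Level of Reg1, Reg2, Reg3b and Reg4 (vertical axes, log2) against the mean level of 26 exocrine pancreas genes (horizontal axis, log2), 1 point per array, blue for control and orange for cKO. Control 1 and cKO 1 lie at 9.28 and 9.16 on the horizontal axis while their Reg1 levels are 11.03 and 8.51.

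The secretory cell lists around Reg4 moved in different directions. A list of goblet cell genes, written with results of these data known, was higher on every array labelled cKO, at 11.56, 11.46 and 11.62 against 10.72, 10.72 and 10.49 on the controls. Of its 11 measured genes 10 rose and 0 fell (median 0.92), where 5.52% of all genes were called higher. The list does not hold Zg16, a lectin gene of goblet cells, which fell by 2.26 ± 0.21 (limma adjusted p = 0.00138). Among the genes that rose were Creb3l1 (1.76 ± 0.18, limma adjusted p = 0.00186) and Spdef (1.36 ± 0.14, adjusted p = 0.00208), both transcription factors of secretory cells. Control 3, the control with the most Reg4, had the lowest goblet mean. Of 12 measured endocrine cell genes 6 fell and 0 rose (median −0.39), where 7.42% of all genes were called lower. Tac1, a tachykinin precursor, fell by 1.76 ± 0.18 (adjusted p = 0.0018) and Chga, chromogranin A, by 1.08 ± 0.10 (adjusted p = 0.00137). Tph1, the serotonin synthesis enzyme of enterochromaffin cells, fell by 0.88 ± 0.20 (adjusted p = 0.0376), a call that held when control 3 was the array left out and in no other such case. Leaving out control 1, or control 2, gave 3 endocrine falls. The part of either cell type in the Reg4 difference was not tested.

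Genes of the signals that raise Reg3 transcription were read against the 12.9% of all genes called in either direction. Of 16 measured genes of the interleukin-22, interleukin-6 and STAT3 route, 1 rose and 2 fell (median −0.06). The falls were in Il22ra1 (−0.41 ± 0.10, limma adjusted p = 0.0423) and Il10rb (−0.40 ± 0.07, adjusted p = 0.0133), whose products form the interleukin-22 receptor, and the rise was in Pias3, an inhibitor of STAT3 (0.32 ± 0.075, adjusted p = 0.0376). Il22ra1 read 12.19, 12.11 and 12.15 on the controls and 11.91, 11.59 and 11.72 on the arrays labelled cKO. Without 1 array these calls could be lost: Il22ra1 lost its call without any 1 control, cKO 2 or cKO 3, Pias3 without any 1 array, and Il10rb without control 3 or cKO 3. Stat3 differed by −0.39 ± 0.11 (adjusted p = 0.0619) and Socs3, a feedback inhibitor that STAT3 induces, by −0.30 ± 0.12 (adjusted p = 0.154).

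Of 15 measured genes of Toll-like receptor, NOD and interleukin-1 signalling, 1 rose and 2 fell (median 0.04). Nod1, a sensor of peptidoglycan, rose by 0.75 ± 0.10 (limma adjusted p = 0.0057). Ticam1, the TRIF adaptor, fell by 0.79 ± 0.10 (adjusted p = 0.00412) and Nod2, another peptidoglycan sensor, by 0.55 ± 0.11 (adjusted p = 0.0219, lost without control 1, control 2, cKO 1 or cKO 3). Among 4 reported receptors or partners of Reg proteins, Cd44 rose by 2.05 ± 0.18 (adjusted p = 0.00112). Extl3, the reported Reg receptor of epithelial cells, differed by 0.21 ± 0.14 (adjusted p = 0.418).

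Other secreted defence genes and lectins were also read against the 12.9% of all genes called in either direction. Few of the defence genes were called, and the lectins called did not share one direction. Of 24 measured antimicrobial and mucosal defence genes other than Reg, 1 rose and 1 fell (median 0.14): Wfdc2, a protease inhibitor, rose by 1.24 ± 0.15 (limma adjusted p = 0.00348) and Pigr, the immunoglobulin transporter, fell by 2.50 ± 0.40 (adjusted p = 0.00988). Lyz1, the Paneth cell lysozyme, differed by 0.30 ± 0.85 (adjusted p = 0.868) and was highest on cKO 2, at 10.56 against 7.27 to 8.69 on the other arrays. A list of 10 immune genes also averaged highest on cKO 2, at 9.45 against 7.61 to 8.25 on the other arrays. The part of immune cell RNA in the Lyz1 level was not tested. Of 15 measured lectins of other families 2 rose and 4 fell (median −0.10). Zg16 was among the falls, the galectin gene Lgals9 fell by 0.94 ± 0.11 (adjusted p = 0.00319), and Lgals1 rose by 1.55 ± 0.25 (adjusted p = 0.00974) and Lgals3 by 0.51 ± 0.09 (adjusted p = 0.0126). Lgals1 is also a mesenchymal gene, and 10 mesenchymal markers averaged 9.46, 9.26 and 8.46 on the arrays labelled cKO against 8.50, 8.03 and 8.23 on the controls. The part of mesenchymal RNA in the Lgals1 difference was not tested. The lectin count was 3 without control 2, where Lgals3 was among those lost.

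**Figure D3:**
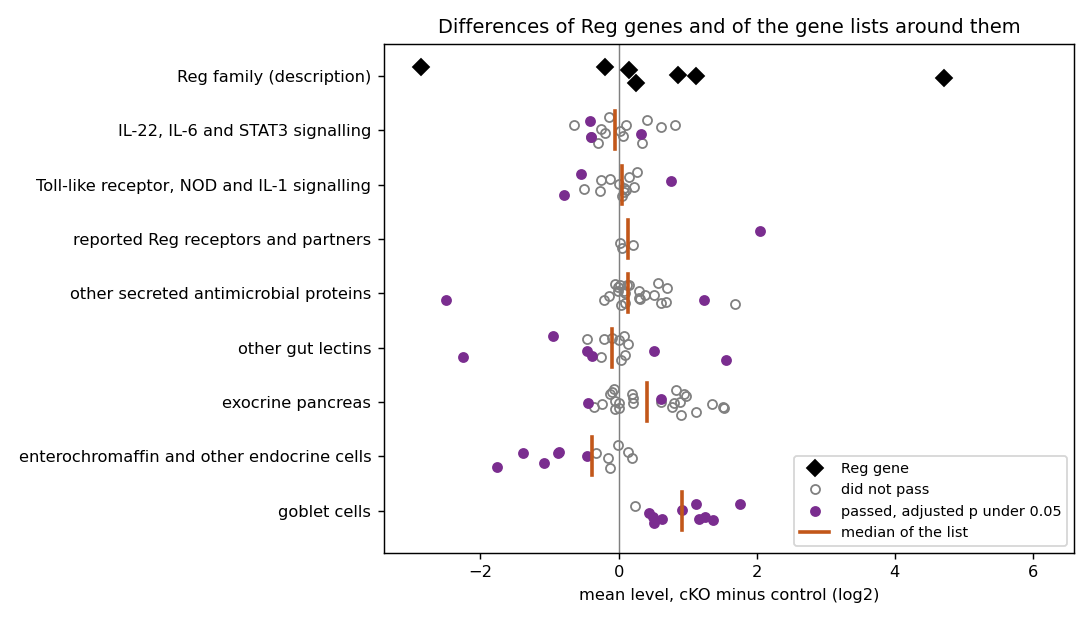
Mean level on the arrays labelled cKO minus controls (horizontal axis, log2) for the Reg genes (black diamonds, top, shown as a description) and the genes of 8 lists, filled where limma's adjusted p was under 0.05, with the list median in orange. Reg3b at 4.71 and Reg1 at −2.87 lie outside the span of each list, whose largest fall is that of Pigr. The Reg genes were picked on this contrast, so their place beside the lists is a description alone.

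Of the members, 6 lie next to each other on chromosome 6 while Reg4 lies alone on chromosome 3, per the RefSeq gene table. The order on chromosome 6 is Reg3b, Reg3d, Reg3a, Reg2, Reg1 and Reg3g, with no other protein-coding gene between them, so Reg1 and Reg3b, which differed in opposite directions, are separated only by members of low level. Of the 3 nearest protein-coding genes on each side of the cluster and of Reg4, 10 were measured and 8 did not pass, with differences from −0.29 to 0.22. Notch2, a receptor gene near Reg4, rose by 0.81 ± 0.17 (limma adjusted p = 0.0243), and this call did not hold without control 1, 2 or 3 or cKO 3. The uncharacterised 4931417E11Rik, the outermost gene counted before the cluster, fell by 0.40 ± 0.09 (adjusted p = 0.0328), and leaving out any single array ended that call.

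In the promoter windows printed above and those of the other 3 members, a GATA motif was found in 5 of 7 (Reg1, Reg2, Reg3a, Reg3b and Reg4) and in 29.8% of 32851 windows of the same length. The STAT motif was found in 2 (Reg3b and Reg3d), against 8.3% of all windows, the CDX motif in 2 (Reg1 and Reg3g), against 10.9%, and the HNF4 motif CAAAGTCCA in 0, against 0.475%. No match overlapped another. With the start base counted as 0, the GATA match of Reg3b lies at −152 to −147 and its STAT match at −129 to −121. Reg1 has its GATA match at −234 to −229, Reg2 at −115 to −110, and Reg4 has 2, at −136 to −131 and −101 to −96. GATA matches thus stand in windows of genes that were higher, lower and little different on the arrays labelled cKO. A match describes letters in the sequence, and binding was not measured.

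Reg3b and Reg3g share more promoter sequence than any other pair of members. They were identical at 68.1% of aligned positions, against 44.3% to 55.8% for the other 20 pairs. Both hold an identical run of 29 bases, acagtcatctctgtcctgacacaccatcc, at −20 to 8. The GATA and STAT matches of Reg3b have no match of the same motif in the Reg3g window.

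**Figure D4:**
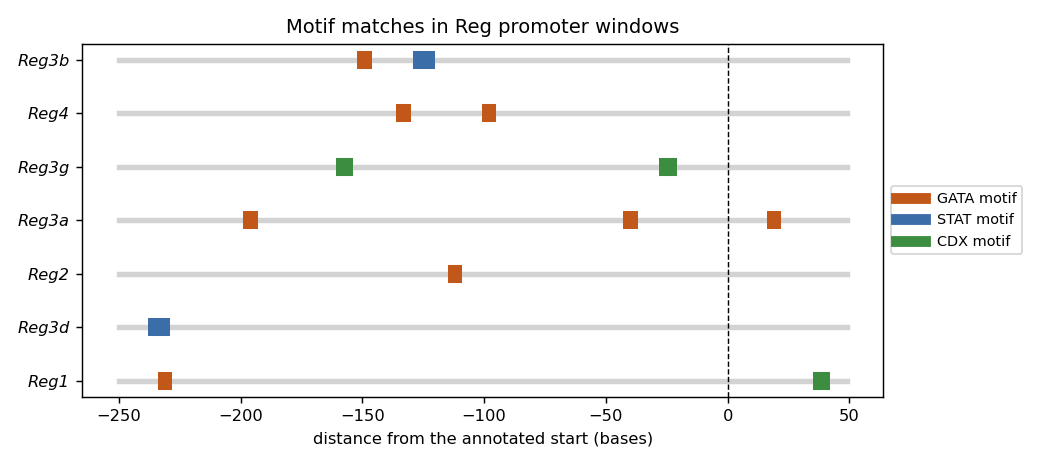
Motif matches along the 7 promoter windows, by distance from the annotated start in bases (horizontal axis, dashed line at 0), orange for GATA, blue for STAT and green for CDX motifs. Reg3b carries a GATA and a STAT match, Reg3g carries CDX matches only, and Reg3a carries 3 GATA matches.

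The genes most like each member over the 6 arrays were taken from 2314 genes with a range of at least 1 log2 unit, by Pearson's r, as a description in which the gap between groups enters every r. For Reg3b they were Tat, tyrosine aminotransferase (r = 0.999), the phosphatase gene Ptpn9 (0.998) and Pdia5, a disulfide isomerase of the endoplasmic reticulum (0.997). Tat read 6.71, 6.82 and 7.02 on the controls and 8.93, 9.35 and 9.16 on the arrays labelled cKO. For Reg1 they were Ckb, brain-type creatine kinase (0.997), Myl7 (0.997) and the alcohol dehydrogenase gene Adh6a (0.994), and for Reg4 they were Sdcbp2 (0.972), Sorl1 (0.958) and Pde7a (0.954). Reg3g was nearest to Slc7a11, a cystine transporter (0.975), H3c15 (0.960) and Agtpbp1 (0.959). The low members matched genes such as Vmn2r81 (Reg2, 0.959), C2cd4b (Reg3a, 0.982) and Bpifb9b (Reg3d, 0.948), of which Vmn2r81 and Bpifb9b lie at low levels themselves, 3.44 to 5.30.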

How the data were processed

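The values are 1 log2 level per probe set (35512) on each of 6 Affymetrix Mouse Gene 1.0 arrays, computed by the authors in dChip according to the series' design text, with version, background correction and normalization not given in the sources used here. Their log2 scale was read from the deposited values (0 to 14.25), and centring is unknown. No scanner file or detection call was used.

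Gene names came from the platform annotation, in which 21789 probe sets have 1 gene, 1621 several and 12102 none. By gene ID, 21698 of those with 1 gene matched RefSeq GRCm38.p6. The probe set with the highest mean stood for a gene. Groups came from the source names. Levels were compared across all genes with limma 3.58.1 in R 4.3.3 (lmFit, eBayes, two-sided, no covariate), adjusted by Benjamini-Hochberg at 0.05. A fold is 2 to the power of the log2 difference. The fit was tested on simulated data. Promoters (1 for each of the 7 genes) were aligned globally with Biopython 1.88 (match 1, mismatch −1, gap opening −3, extension −1).

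The members, the lists and the genes named were chosen with earlier results of these data known. Named were the members, up to 4 called genes of each list, taken by adjusted p, from which those that bear on the members are printed, a set fixed by name (among them Extl3, Il22ra1, Stat3, Socs3, Cpa1, Tph1, Lyz1 and Alb), the neighbours of Reg genes, and the 3 genes most like each member. Of lists used for tissue checks, hepatocyte (8 measured), erythroid (5) and mesenchymal (10) genes had 0 calls by limma, 1 of 10 immune genes fell, 3 of 10 epithelial genes rose, and 1 of 9 islet genes rose and 1 fell. Alternatives were quantile normalization, median centring, log2(2^value + 32), leaving out the lower tertile of genes, a trended robust eBayes, the replicate number as a block, means of probe sets, array weights and each array left out. Added after seeing the data were the goblet list, the count of members called, leaving out control 3 with cKO 2, and the exocrine or the hepatocyte mean as a covariate.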

Additional observations from a re-analysis of the deposited data

How the results depend on the processing

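The count of genes called was 2580. It was 1449 with the replicate block, 1586 without control 3 and cKO 2, 1708 with the exocrine covariate, and 1482 to 2281 with 1 array left out. The labels do not say whether same-numbered arrays were paired. Deviations of same-numbered arrays from their group means correlated at −0.015, −0.425 and −0.184. The exocrine mean fell from array 1 to array 3 in both groups, while the hepatocyte mean was highest on control 3 and on cKO 2. With so few arrays, which also differ in liver RNA, neither these orders nor the correlations can decide whether a pairing exists. The interleukin-22 list had 3 calls, 0 with the replicate block, 0 without control 3 and cKO 2, 1 after quantile normalization, and 0 to 2 with 1 array left out. The lectin list had 6, 3 with the block, 3 without that pair of arrays, and 3 to 7 with 1 array left out. The exocrine list had 2 calls, 1 after quantile normalization, with the block, without that pair or with the exocrine covariate, and 0 to 3 with 1 array left out. The endocrine list had 6, 3 with the block or that covariate, and 3 to 5 with 1 array left out. The receptor list had 1 call, and 1 to 2 with 1 array left out. Toll-like receptor and antimicrobial counts stayed within 1.5 times. With the block, however, the antimicrobial list had 2 rises and 0 falls, and Pigr lost its call (limma adjusted p = 0.0568). Reg1 ran from −3.03 to −2.64 and Reg3b from 4.60 to 4.86 with 1 array left out, and from −2.98 to −2.76 and from 4.51 to 4.82 under the other settings. Of 28 named genes with a call beside the members, 14 lost it in at least 1 setting and 0 changed sign while called. With 3 arrays per group and no detection calls, small differences of the dim members Reg2, Reg3a and Reg3d cannot be resolved.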

Other observations

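Retnlb, a goblet cell antimicrobial protein of the list of secreted defence genes, differed between arrays of the same group by more than any Reg gene did. It read 5.57, 5.84 and 10.87 on the controls and 7.82, 7.13 and 12.40 on the arrays labelled cKO. It was named after its values were seen, and its difference of 1.69 ± 1.88 did not pass (limma adjusted p = 0.634). That fit took no account of replicate number, and control 3 and cKO 3 were the highest arrays of their groups.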
